A study of Mus musculus with 6 samples.

Results

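The 10 genes described here encode ligands and surface proteins with which tumor cells restrain or alert T lymphocytes, Natural Killer (NK) cells and macrophages. They were taken by symbol from the 21960 genes counted in TuBo cells, and all 10 had a row. Of the 10, 8 had enough reads for a test and 2, Cd274 and Cd80, did not. TuBo cells came from a spontaneous mammary tumor of the BALB/c-MMTV-NeuT mouse, in which the MMTV promoter drives an activated rat Her2 transgene. The study uses the line to model HER2+ breast cancer. All libraries come from this line. In 3 mock libraries the cells were controls, labelled wild type, and in 3 p140Cap libraries they carried a retroviral (pBabe-puro) p140Cap cDNA and had been selected with puromycin, cloned and pooled from individual clones. The series' design text speaks of mice where the sample labels speak of cell lines, and the libraries were read here as cultured TuBo cells. No source used here says whether replicates were separate cultures, so p-values measure the spread between these libraries, which may be technical.

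Checkpoint ligands of the B7 family bind receptors on T lymphocytes. CD80 can stimulate through CD28 or restrain through CTLA-4, whereas PD-L1 (Cd274) and B7-H4 (Vtcn1) are mainly known as inhibitors, and B7-H3 (Cd276) has been given both roles. Galectin-9 (Lgals9) is a secreted lectin that binds TIM-3 among other partners. NK cells read a balance of signals: MULT1 (Ulbp1) engages the activating receptor NKG2D, and PVR (CD155) and Nectin-2 (CD112) engage both the activating DNAM-1 and the inhibitory TIGIT. CD47 binds SIRPα on macrophages and restrains phagocytosis, and CD73 (Nt5e) turns extracellular AMP into adenosine, which dampens lymphocytes. In tumors several of these genes respond to interferon-γ or to hypoxia.

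Total reads on genes lay between 33058719 and 75506562 in mock libraries and between 13770385 and 15364850 in p140Cap libraries, and each p140Cap library was thus the shallower one in any pair. Srcin1, which encodes p140Cap, had 509 to 1192 reads per mock library and 30546 to 36989 per p140Cap library, the direction that the labels give. Levels are given below as CPM (counts per 1000000 reads of library size, after adjustment of the sizes with TMM factors). Most epithelial markers were abundant, with Epcam at 892 CPM in mock and 1195 CPM in p140Cap cells on average. Krt19 was the exception, with 4, 1 and 1 reads in mock and 5, 3 and 1 reads in p140Cap libraries, and was not tested. The summed level of the 8 markers was 5682 to 6104 CPM in mock and 6741 to 6996 CPM in p140Cap libraries. The 5 leukocyte markers summed to at most 0.147 CPM in any library, and Ptprc, Cd3e, Ncr1, Adgre1 and Ly6g had 0 reads in all 6. B cell markers summed to at most 0.136 CPM, and the T and NK cell markers to 0.427 to 0.483 CPM in mock and 0.0734 to 0.885 CPM in p140Cap libraries. Of the other lists, myeloid markers summed to 2.12 to 2.46 CPM and 3.23 to 4.15 CPM, nearly all of it Cd68, fibroblast markers to 9.97 to 10.5 CPM and 11.3 to 14.1 CPM, mostly Pdgfra and Col1a1, and endothelial markers to 0.270 to 0.528 CPM and 0.613 to 0.923 CPM, in mock and p140Cap libraries respectively. The part of depth and of these markers in the results was not tested, except that the same number of members was called, 3 lower and 4 higher, with every library thinned to the smallest total.

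Promoters are shown for the pair of members with the largest decrease and for the pair with the largest increase among those with an entry in the promoter table (RefSeq, GRCm38.p6, which held 9 of the 10 members and not Pvr). Each line gives the 250 bases before the annotated start, 5′ to 3′ on the strand of the gene, with capitals marking matches to GGGCGG on either strand, the GC box bound by Sp1.
Nt5e (chr9:88327359-88327608, plus strand): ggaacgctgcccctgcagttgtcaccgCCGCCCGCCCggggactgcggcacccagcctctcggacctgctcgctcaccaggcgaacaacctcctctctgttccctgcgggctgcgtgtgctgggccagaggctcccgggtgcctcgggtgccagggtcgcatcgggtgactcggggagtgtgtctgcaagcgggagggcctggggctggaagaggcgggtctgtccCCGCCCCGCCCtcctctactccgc
Lgals9 (chr11:78984925-78985174, minus strand): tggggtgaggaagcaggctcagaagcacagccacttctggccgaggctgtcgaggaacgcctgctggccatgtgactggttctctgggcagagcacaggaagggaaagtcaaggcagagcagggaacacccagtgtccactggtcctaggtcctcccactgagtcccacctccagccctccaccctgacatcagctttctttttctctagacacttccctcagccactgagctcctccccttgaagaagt
Vtcn1 (chr3:100825209-100825458, plus strand): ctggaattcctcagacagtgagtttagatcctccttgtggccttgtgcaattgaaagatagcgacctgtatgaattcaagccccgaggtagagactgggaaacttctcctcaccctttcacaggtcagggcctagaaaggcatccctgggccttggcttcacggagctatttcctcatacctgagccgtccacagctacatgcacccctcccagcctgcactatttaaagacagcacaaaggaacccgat
Nectin2 (chr7:19749574-19749823, minus strand): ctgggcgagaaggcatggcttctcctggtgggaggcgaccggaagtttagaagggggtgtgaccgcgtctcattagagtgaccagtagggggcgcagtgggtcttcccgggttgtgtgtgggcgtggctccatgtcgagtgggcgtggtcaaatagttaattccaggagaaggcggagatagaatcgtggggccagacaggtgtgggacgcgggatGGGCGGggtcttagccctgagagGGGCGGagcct
The GC box stood in the windows of Nt5e, which fell most, and of Nectin2, which rose, and in neither of the others. GGGCGG stood in 32.7% of all 32851 promoter windows of this length. Further motifs were searched on both strands. One of these was CACGTG, the E-box that Myc binds. The core ACGTG that HIF binds lies within that E-box. The AP-1 motif TGACTCA, the core TCAAAG of TCF/LEF factors, the TATA box TATAAA and the CCAAT box were the others. None of these was found in the 4 windows printed. Among the other members, the windows of Cd274, Cd80, Cd47 and Ulbp1 precede a start that lies inside the gene position given below. TCAAAG was in the windows of Cd274 and Cd80 (13.8% of all windows hold it), and ACGTG in that of Cd47 (16.6% of all windows). The CCAAT box was in the windows of Cd276 and Ulbp1 (33.8% of all windows), and the GC box in those of Cd276, Cd47 and Cd274. Bases just after the start were found in an annotated transcript of the gene for every member with an entry except Cd276.

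Of the 8 members tested, 4 rose, 3 fell and 1 did not pass the test in p140Cap cells. Vtcn1, Pvr, Nectin2 and Cd47 were higher, Nt5e, Lgals9 and Ulbp1 were lower, and Cd276 did not pass. Among all 11800 genes tested, 71.1% passed the same test (quasi-likelihood test of the edgeR package, Benjamini-Hochberg adjusted p under 0.05), 35.9% lower and 35.2% higher, and the 7 of 8 members called is to be read against this share. The CPM ranges of the groups were apart for 7 of the 8, and for 73.4% of all genes tested. The median log2 fold change of the 8 was 0.09, beside 0.00 for all genes tested. The members differed from each other in the size of the change. Nt5e and Lgals9 were the 2 of 8 called with a change of at least 1 log2 unit, both lower, where 9.97% of all genes tested were called with such a change and 5.04% were called and lower by as much. Nt5e stood at position 161 and Lgals9 at position 796 of the 11800 genes by absolute log2 fold change, whereas Vtcn1 stood at 1788, Pvr at 2980, Nectin2 at 3375, Ulbp1 at 4904, Cd47 at 6954 and Cd276 at 10502. The deposited counts measure messenger RNA of whole cultures, in which fewer expressing cells and less RNA per cell cannot be told apart.

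**Figure D1:**
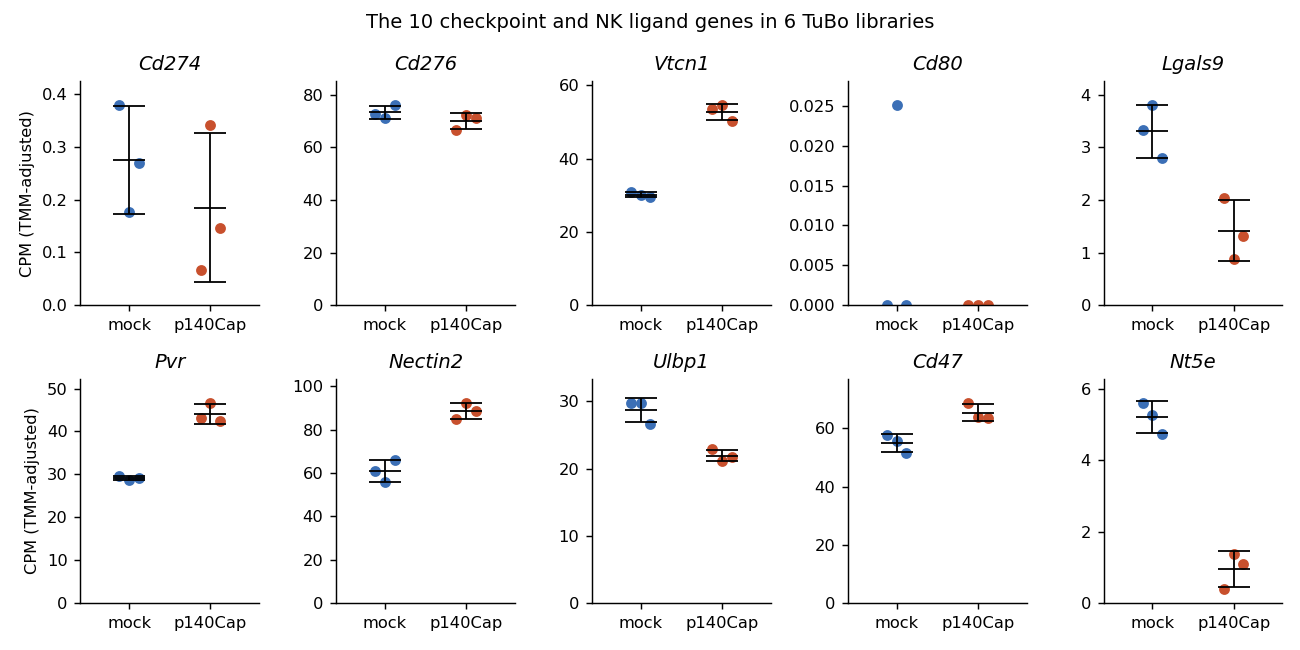
Normalized level (CPM on TMM-adjusted library sizes, linear axes from 0) of each member in the 3 mock (blue) and 3 p140Cap (red) libraries, with black bars at the mean ± SD, left out for Cd80. Nt5e, Lgals9 and Ulbp1 sit lower and Vtcn1, Pvr, Nectin2 and Cd47 higher in all 3 p140Cap libraries, while Cd274 and Cd276 overlap and Cd80 has 1 read in 1 mock library.

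Vtcn1 (ENSMUSG00000051076; chromosome 3 of GRCm38, 100825459 to 100896922, plus strand) showed the largest rise. B7-H4, its product, is a B7 family protein found on breast carcinoma cells that restrains T lymphocytes. Its reads numbered 2366, 1201 and 982 in mock and 810, 802 and 684 in p140Cap libraries, which correspond to 30.9, 30.2 and 29.5 CPM and to 53.4, 54.6 and 50.2 CPM. All p140Cap libraries were above all mock libraries. The level was 30.2 ± 0.714 CPM in mock and 52.8 ± 2.26 CPM in p140Cap cells (SD, n = 3 each). This was a 1.74-fold rise (log2 fold change 0.80, SE 0.06, 95% interval 0.69 to 0.92, edgeR adjusted p = 1.69e-09).

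Cd276 (ENSMUSG00000035914; chromosome 9, 58524300 to 58555033, minus strand), which encodes its relative B7-H3, did not pass the test. It had 5556, 2836 and 2533 reads in mock and 1010, 1063 and 971 reads in p140Cap libraries, or 72.6, 71.3 and 76.1 CPM against 66.6, 72.4 and 71.3 CPM. The groups overlapped. The log2 fold change was -0.06, with a 95% interval from -0.17 to 0.05 (edgeR adjusted p = 0.278), so that a change of more than 0.17 log2 units in either direction lay outside the interval.

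Cd274 (ENSMUSG00000016496; chromosome 19, 29362107 to 29388095, plus strand), which encodes PD-L1, was a rare transcript. Mock libraries held 29, 7 and 9 of its reads and p140Cap libraries 1, 5 and 2, too few for the test. The values, 0.379, 0.176 and 0.270 CPM against 0.0659, 0.341 and 0.147 CPM, overlapped. Over the 45 reads of mock and 8 reads of p140Cap libraries, the mock level was 1.63 times the p140Cap level (95% exact interval 0.762 to 4.01, counting error only), and the interval includes 1. Leaving out 1 library at a time moved this ratio between 1.19, without mock replicate 1, and 2.89, without p140Cap replicate 2. A difference was not detectable at this depth, since 3 reads already correspond to about 0.198 to 0.220 CPM in a p140Cap library. Chromosome 19, on which Cd274 lies, had a median log2 fold change of -0.35 over its 426 genes tested. Of these 426, 65% were called lower, where 35.9% of all genes tested were lower and 35.2% higher. Within 1 Mb of Cd274, 17 genes were tested, of which 8 were lower and 4 higher, with a median of -0.22. Their part in the level of Cd274 was not tested. Jak2, which encodes a kinase of interferon-γ signaling, is one of these 17 neighbours and was higher, by 0.31 log2 units (edgeR adjusted p = 3.26e-05). Plgrkt, another of the 17, overlaps Cd274 on the other strand and was lower, at -0.40 (edgeR adjusted p = 0.00018). Whether the few reads of Cd274 include reads of Plgrkt was not tested.

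Cd80 (ENSMUSG00000075122; chromosome 16, 38457430 to 38495958, plus strand) was nearly absent. A single read was counted, in mock replicate 2, and the other 5 libraries had 0. A count of 0 allows up to 3 reads, which is 0.0392 CPM in mock replicate 1, the deepest library, and 0.220 CPM in p140Cap replicate 3, the shallowest. Both groups were at or under this limit, and no fold is given.

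Lgals9 (ENSMUSG00000001123; chromosome 11, 78962979 to 78984924, minus strand) was low in both groups and lower in p140Cap cells. It had 254, 151 and 93 reads in mock and 31, 13 and 18 reads in p140Cap libraries, or 3.32, 3.80 and 2.79 CPM against 2.04, 0.885 and 1.32 CPM. The p140Cap values spread widely among themselves, and all 3 were below the lowest mock value. On the log2 scale the change was -1.22 ± 0.23 (SE, edgeR adjusted p = 0.000138), a level 2.33-fold lower. On pooled reads, 498 against 62, the counting interval of the ratio was 1.79 to 3.09. No annotated gene overlaps Lgals9.

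Pvr and Nectin2, the members from the nectin family, both rose. Pvr (ENSMUSG00000040511; chromosome 7, 19903578 to 19921143, minus strand) had 2274, 1141 and 969 reads in mock libraries and 654, 686 and 579 in p140Cap libraries. These correspond to 29.7, 28.7 and 29.1 CPM and to 43.1, 46.7 and 42.5 CPM, with no overlap. On the log2 scale Pvr changed by 0.60 ± 0.06 (SE, 95% interval 0.47 to 0.72, edgeR adjusted p = 9.73e-08), or 1.51-fold.

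Nectin2 (ENSMUSG00000062300; chromosome 7, 19716644 to 19749573, minus strand) shares the receptors DNAM-1 and TIGIT with Pvr and lies 154005 bases from it on the same strand. It had 4647, 2225 and 2203 reads in mock and 1290, 1357 and 1209 reads in p140Cap libraries, or 60.7, 55.9 and 66.2 CPM against 85.0, 92.4 and 88.8 CPM. All 3 p140Cap libraries were again above all mock libraries. On the log2 scale the change was 0.54 ± 0.06 (SE, 95% interval 0.42 to 0.67, edgeR adjusted p = 5.65e-07), an interval that overlapped that of Pvr. The difference between the 2 genes was not tested. Of the 38 genes tested within 1 Mb of Pvr, Nectin2 among them, 18 were higher and 10 lower, with a median of 0.20, while the median of chromosome 7 was 0.06. The shares over all genes tested were 35.2% higher and 35.9% lower.

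Ulbp1 (ENSMUSG00000079685; chromosome 10, 7444873 to 7473641, minus strand), the ligand of NKG2D, moved the other way. Mock libraries held 2270, 1185 and 888 of its reads, and p140Cap libraries 348, 311 and 295. The values were 29.7, 29.8 and 26.7 CPM in mock and 22.9, 21.2 and 21.7 CPM in p140Cap cells, and the groups did not overlap. On the log2 scale the change was -0.39 ± 0.07 (SE, 95% interval -0.54 to -0.25, edgeR adjusted p = 8.43e-05), a level 1.31-fold lower. Among the NKG2D ligands with a row in the counts, the others, Raet1d, Raet1e, H60b and H60c, had 0 reads in every library. The ligands Raet1a, Raet1b, Raet1c and H60a had no row, so whether these cells express them cannot be read from the counts.

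Cd47 (ENSMUSG00000055447; chromosome 16, 49851328 to 49912503, plus strand) had the smallest change among the members called. It had 4414, 2218 and 1711 reads in mock and 1044, 937 and 867 reads in p140Cap libraries, or 57.7, 55.8 and 51.4 CPM against 68.8, 63.8 and 63.7 CPM. The gap between the highest mock and the lowest p140Cap library was about as wide as the spread within each group. On the log2 scale the change was 0.25 ± 0.06 (SE, 95% interval 0.13 to 0.37, edgeR adjusted p = 0.000944), or 1.19-fold. Annotated genes overlap Cd47 and Cd80 on both strands, and the reads of these members may include theirs. Genes on the other strand overlap Cd274, Cd276, Vtcn1, Pvr, Nectin2 and Ulbp1, and their reads cannot be told apart where strand was not used in counting.

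Nt5e (ENSMUSG00000032420; chromosome 9, 88327609 to 88372089, plus strand), which encodes the ecto-5′-nucleotidase CD73, changed most among the members. Mock libraries held 430, 210 and 158 of its reads, and p140Cap libraries 6, 20 and 15. These are 5.62, 5.28 and 4.74 CPM and 0.395, 1.36 and 1.10 CPM, so the mock libraries were close together and p140Cap replicate 1 was the lowest of all. On the log2 scale the change was -2.48 ± 0.23 (SE, edgeR adjusted p = 5.66e-08), a level 5.57-fold lower. On pooled reads, 798 against 41, the ratio was 5.66 with a 95% exact counting interval from 4.13 to 7.94. No annotated gene overlaps Nt5e. Among all genes tested 35.9% were lower and 35.2% higher. Of the 6 genes tested within 1 Mb of Nt5e, 2 were lower and 3 higher, and the median was 0.24. The lowest of these was Bcl2a1d, with a log2 fold change of -2.21 (edgeR adjusted p = 0.00057).

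**Figure D2:**
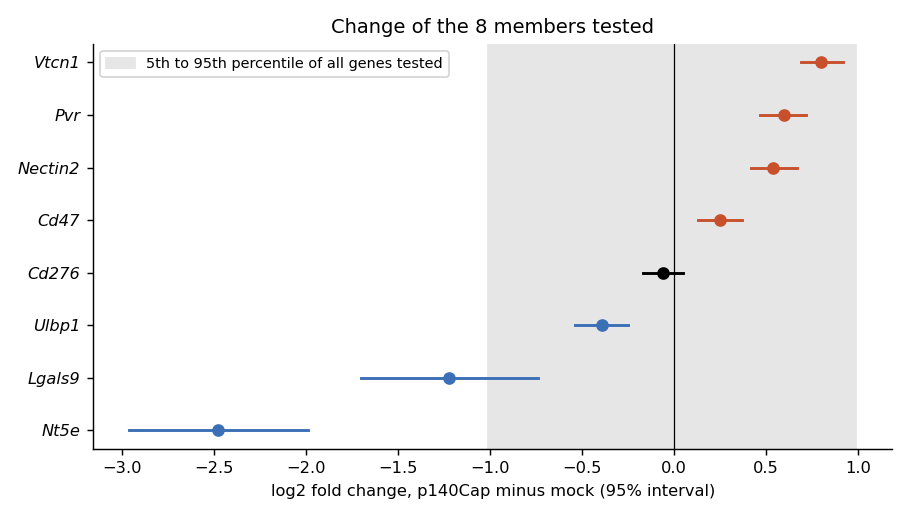
Log2 fold change of the 8 members tested, p140Cap minus mock, with 95% intervals from the edgeR fit (red higher, blue lower, black not called), over a grey band that spans the 5th to 95th percentile of all genes tested, -1.01 to 0.99. Nt5e at -2.48 and Lgals9 at -1.22 lie outside the band, and the other 6 lie inside it.

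Members were also ordered by their level, for which CPM was divided by the exon length of each gene, in CPM per kilobase (all values in this paragraph are levels on that scale, means ± SD of 3 libraries). In mock cells the order was Nectin2 at 15.1 ± 1.27, Cd276 at 14.3 ± 0.480, Vtcn1 at 11.1 ± 0.262, Cd47 at 6.27 ± 0.368 and Pvr at 4.68 ± 0.0829, followed by Ulbp1 at 3.45 ± 0.212, Lgals9 at 1.45 ± 0.221, Nt5e at 0.595 ± 0.0503, Cd274 at 0.0674 ± 0.0249 and Cd80. Nectin2 and Cd276 did not differ beyond their spread, and the libraries of all other neighbours in this order did not overlap. In p140Cap cells Vtcn1, at 19.3 ± 0.829, stood above Cd276, at 13.7 ± 0.605, and below Nectin2, at 22.0 ± 0.919. Cd47 at 7.46 ± 0.333 and Pvr at 7.08 ± 0.366 then overlapped. Nt5e, at 0.109 ± 0.0571, overlapped with Cd274, at 0.0452 ± 0.0346. Among 11758 genes with a length, Vtcn1 went from above 70.0% of the genes in mock to above 83.6% in p140Cap cells, Nectin2 from 78.4% to 86.0%, Nt5e from 11.2% to 2.62% and Lgals9 from 19.2% to 10.9%. With the longest annotated transcript in place of all exons, Pvr (14.9) stood above Cd47 (11.8) in p140Cap cells, and the order was otherwise as given. The overlaps then changed, with Cd47 and Pvr overlapping in mock cells, Vtcn1 and Cd276 overlapping in p140Cap cells, and Nt5e and Cd274 no longer overlapping there.

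**Figure D3:**
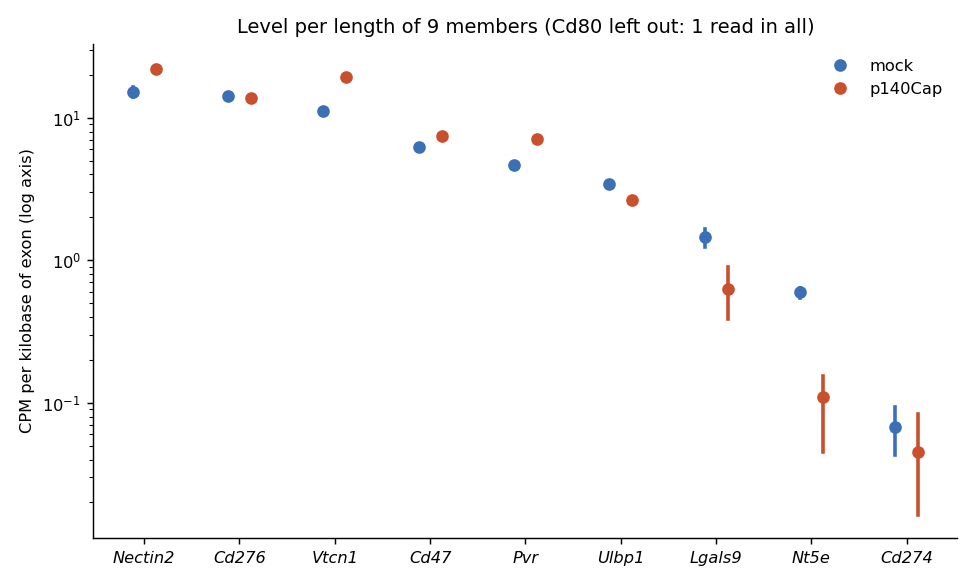
Level of 9 members in CPM per kilobase of exon on a log axis, as the mean (point) and the range of 3 libraries (line) for mock (blue) and p140Cap (red) cells. Levels span from 22.0 for Nectin2 in p140Cap cells down to 0.0452 for Cd274, and the range of Nt5e in p140Cap cells overlaps that of Cd274.

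For the members with the smallest p-values, Vtcn1 and Nt5e, the genes with the most similar pattern were sought as the smallest root mean square distance of log2 CPM, taken as differences from the mock mean over the 6 libraries. Slc29a3, Kdm5b and Aox1 lay closest to Vtcn1, at distances of 0.0102, 0.0200 and 0.0253, and 266 genes lay within 0.1. Their log2 fold changes were 0.80, 0.83 and 0.80. Kif26b, Zfp354a and Gm7173 lay closest to Nt5e, at 0.184, 0.222 and 0.257, and no gene lay within 0.1. Kif26b had 3, Zfp354a 4 and Gm7173 2 reads over the p140Cap libraries, with 0 in replicate 1, where Nt5e was also lowest.

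The wider set of T lymphocyte ligands held 20 further genes, of which 9 had enough reads. Of these 9, 5 were higher, 2 lower and 2 not called, with a median log2 fold change of 0.43, beside 0.00 for all genes and 71.1% of all genes called. Vsir, which encodes the inhibitory B7 family protein VISTA, rose most. It had 2594, 1328 and 1166 reads in mock and 2719, 2893 and 2557 reads in p140Cap libraries. The groups did not overlap in CPM. The level went from 34.1 ± 0.831 to 188 ± 8.93 CPM (SD, n = 3 each). The rise was 5.52-fold (log2 fold change 2.46, SE 0.05, edgeR adjusted p = 1.46e-15). VISTA is also a protein of myeloid cells. Of the 10 myeloid markers, 5 had 0 reads in every library (Adgre1, Lyz2, Ly6g, Itgax and Fcgr3), and Cd68 was the only marker tested. Cd68 had 156, 81 and 78 reads in mock and 60, 60 and 44 in p140Cap libraries and was higher, as Vsir was, by 0.83 log2 units (edgeR adjusted p = 0.000119). Its part in the level of Vsir was not tested. Btn2a2, a butyrophilin that inhibits T lymphocytes, was higher by 1.51 log2 units (edgeR adjusted p = 0.00179) on 49 reads in mock and 41 in p140Cap libraries. Igsf11, a proposed ligand of VISTA, was lower at -1.12 (edgeR adjusted p = 8.43e-05). Pdcd1lg2, Cd86, Icosl, Tnfsf4 and Cd70 had 0 reads in every library.

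**Figure D4:**
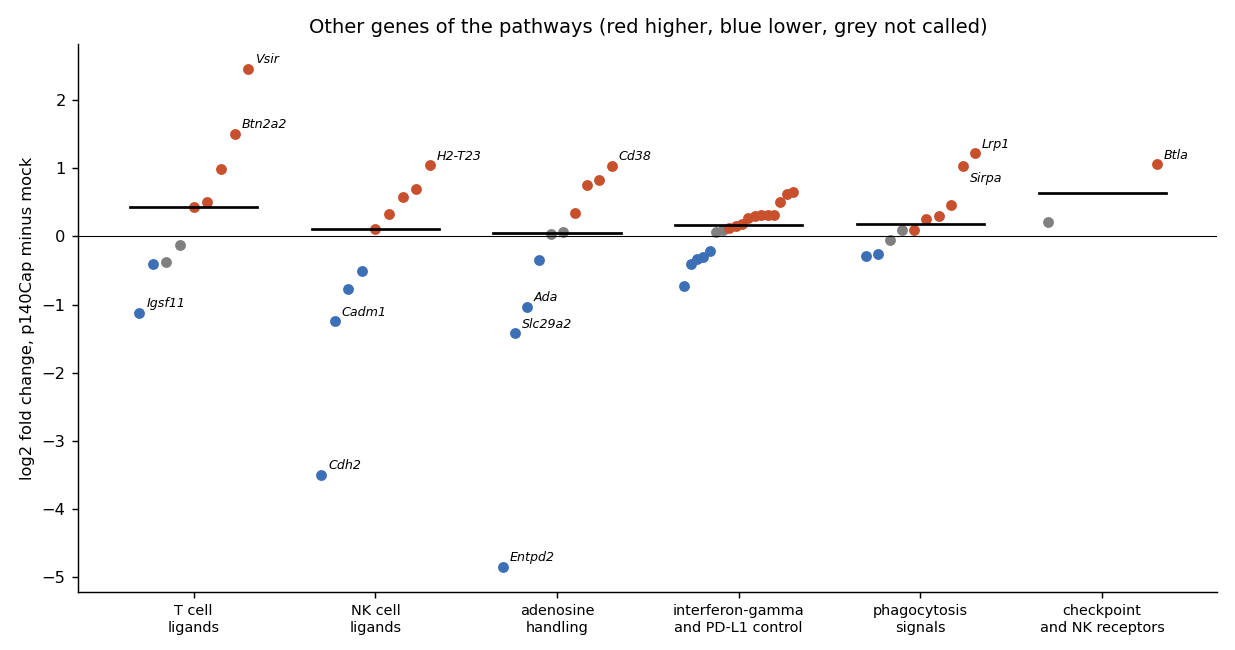
Log2 fold change, p140Cap minus mock, of every gene tested in the 6 further lists, with black lines at the list medians and names for genes past 1 log2 unit. The T lymphocyte ligand list spans -1.12 (Igsf11) to 2.46 (Vsir), and the adenosine list spans -4.85 (Entpd2, a fitted value on 1 read in p140Cap libraries) to 1.04 (Cd38).

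The wider set of NK cell ligands held 23 genes, 18 with a row and 9 with enough reads. All 9 were called, 5 higher and 4 lower, beside 71.1% of all genes tested, and their median log2 fold change was 0.11. The other nectins of this list went both ways. Nectin4 was higher by 0.70 log2 units (edgeR adjusted p = 2.06e-09), while Nectin1, at -0.77 (edgeR adjusted p = 2.35e-05), and Nectin3, at -0.50 (edgeR adjusted p = 1.23e-06), were lower. Cdh2, which encodes N-cadherin, a ligand of the NK receptor KLRG1, changed by -3.50 ± 0.19 log2 units (SE, edgeR adjusted p = 1.28e-10), from 6.53 ± 0.378 to 0.579 ± 0.163 CPM. Cdh1, the other cadherin of this list, did not fall. It stood at 543 ± 7.75 CPM in mock and 587 ± 29.6 CPM in p140Cap cells (log2 fold change 0.11, edgeR adjusted p = 0.0471). Cadm1, the ligand of the NK receptor CRTAM, was lower at -1.24 (SE 0.05, edgeR adjusted p = 1.81e-12), from 166 ± 2.43 to 70.4 ± 0.0782 CPM. H2-T23, which encodes Qa-1, the ligand of the inhibitory receptor NKG2A, was higher at 1.05 (SE 0.05, edgeR adjusted p = 4.72e-11), from 98.6 ± 5.48 to 204 ± 8.94 CPM. For Cdh2, Cadm1 and H2-T23 the libraries of the groups did not overlap.

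Around CD73, the list of genes that produce, remove or sense extracellular adenosine held 16 genes, of which 10 were tested. Of the 10, 4 were lower, 4 higher and 2 not called, close to the 71.1% called among all genes tested, with a median log2 fold change of 0.05. Entpd2, an ectonucleotidase that acts on ATP upstream of CD73, had 67, 27 and 23 reads in mock and 1, 0 and 0 reads in p140Cap libraries. The ratio of pooled reads was 34.0, with a 95% exact counting interval from 5.98 to 1354, and edgeR gave an adjusted p of 1.15e-05. The fitted log2 fold change, -4.85, rests on that single read: it was -7.78 without p140Cap replicate 1, and ranged from -7.78 to -3.97 over the alternatives. Its relative Entpd1, which encodes CD39, had 1, 0 and 1 reads in mock and 0 in the p140Cap libraries. Slc29a2, an equilibrative nucleoside transporter, was lower at -1.42 (SE 0.09, edgeR adjusted p = 1.23e-09), from 15.9 ± 0.619 to 5.91 ± 0.610 CPM, and lies on chromosome 19. Cd38, an ectoenzyme that consumes NAD, was higher at 1.04 (SE 0.07, edgeR adjusted p = 2.01e-09), from 11.7 ± 0.737 to 24.3 ± 0.656 CPM.

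Among 20 genes of interferon-γ signaling and of PD-L1 control, 18 were tested, with 11 higher, 5 lower and 2 not called and a median log2 fold change of 0.17. Of all genes tested, 35.2% were called higher and 35.9% lower. Myc was lower at -0.73 (SE 0.06, edgeR adjusted p = 8.18e-09). Hif1a, the oxygen-regulated factor, was higher at 0.65 (SE 0.05, edgeR adjusted p = 1.88e-09), and Cmtm6, whose product holds PD-L1 at the cell surface, was higher at 0.63 (SE 0.05, edgeR adjusted p = 3.00e-09). Cmtm6 went from 102 ± 2.47 to 159 ± 3.41 CPM while Cd274 itself stayed under 0.4 CPM in every library.

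Among 12 genes that signal to phagocytes or set the function of CD47, 10 were tested, with 6 higher, 2 lower and 2 not called and a median log2 fold change of 0.18. The 8 called are close to the 71.1% of all genes tested. Lrp1, the receptor for surface calreticulin, was higher at 1.22 (SE 0.13, edgeR adjusted p = 3.89e-07). Sirpa, the receptor of CD47, was present in these epithelial cells and went from 28.8 ± 0.796 to 59.1 ± 3.34 CPM (log2 fold change 1.04, SE 0.06, edgeR adjusted p = 1.12e-10). The myeloid marker Cd68, given above, was higher too, and its part in the level of Sirpa was not tested. Thbs1, a secreted ligand of CD47, was higher at 0.46 (SE 0.07, edgeR adjusted p = 8.17e-06).

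Receptors of checkpoint and NK ligands are mainly genes of lymphocytes, and most had few or no reads. Of 20 receptor genes, 8 had 0 reads in every library, Pdcd1, Cd226, Cd96, Klrk1 and Ncr1 among them, and 2 were tested, of which 1 was called, beside 71.1% of all genes tested. Btla, the receptor for HVEM, had 179, 84 and 74 reads in mock and 87, 51 and 66 in p140Cap libraries (log2 fold change 1.06, SE 0.16, edgeR adjusted p = 2.25e-05). Lag3 had 155, 69 and 46 reads against 34, 26 and 29, with overlapping levels and a log2 fold change of 0.21 (95% interval -0.22 to 0.63, edgeR adjusted p = 0.367). Cd200r1 followed with 53 reads in mock and 17 in p140Cap libraries and was not tested.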

How the data were processed

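RNA from 3 mock and 3 p140Cap TuBo libraries had been prepared by the authors with a stranded, poly(A)-selected Illumina protocol. The deposited table holds raw counts, 1 whole number for each gene and library, that the authors had neither normalized nor pooled. The submitters' processing notes name STAR 2.5, RSEM 0.1.1 and mm10, with annotation release and strand setting not given in the sources used here. Among its reference genomes the study lists GRCm39 for mouse, so the build behind the counts is in doubt. Counts were joined by gene and not by coordinate, and the positions printed are those of GRCm38. Without strand, reads of overlapping genes cannot be separated.

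In R 4.3.3, edgeR 4.0.16 compared the groups by quasi-likelihood (TMM factors, filterByExpr, no covariate, Benjamini-Hochberg adjustment over 11800 genes, threshold 0.05). SE is the absolute log2 fold change over the square root of F. Between 3 and 3 libraries an exact permutation test cannot go below p = 0.1. Counting intervals are 95% exact binomial intervals on pooled reads (SciPy 1.17.1), and floors are 3 reads. Both cover counting error only. Replicates differed by more than sampling noise.

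Exon lengths and overlaps came from GENCODE vM39 by Ensembl identifier (98.6% of genes matched), positions from RefSeq GRCm38.p6 by symbol (97.1%). All members are named, with up to 3 called genes of largest change per list (for receptors, the 3 with most reads) and the 3 genes closest to each of the 2 members with the smallest p. Jak2, Plgrkt, Bcl2a1d, Entpd1, Cd68, Krt19, Cdh1, Nectin1, Nectin3, Nectin4 and genes given as having 0 reads were named after their values were seen. Members and lists were chosen with earlier results of these data known. Alternatives were DESeq2 1.42.0, RLE factors, other filters, limma-voom (limma 3.58.1), thinning to the smallest total, the replicate block and leaving out each library.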

Additional observations from a re-analysis of the deposited data

How the results depend on the processing

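Under 13 alternatives (DESeq2, RLE factors, no filter, a minimum of 10 reads per library, limma-voom, the replicate number as a block, thinning to the smallest total, and each of the 6 libraries left out), the 7 members called kept their direction and stayed under the threshold in every fit that tested them, and Cd276 stayed above it, with adjusted p between 0.116 and 0.681. Nt5e was removed by the filter of at least 10 reads and otherwise ranged from -2.85 to -2.09, Lgals9 from -1.60 to -0.97 and Cd47 from 0.20 to 0.29 on the log2 scale. With the replicate block, 3 members were lower and 4 higher, as were 17 and 30 genes of the other lists (17 and 32 without it), and no call changed among the 32 genes that the naming rule gave and that were tested. The numbers do not pair the libraries: same-numbered libraries correlated at -0.03, -0.11 and -0.06 in their deviations from the group means. Cd274 was tested only without the filter (log2 fold change -0.68, adjusted p = 0.372, edgeR) and without p140Cap replicate 1 (-0.26, 0.739) or replicate 3 (-0.55, 0.503), and was not called. Over all alternatives 16 to 20 genes of the other lists were lower and 27 to 32 higher. The ratio of Cd274 reads was 1.68 with the deposited totals. These 32 genes gave 400 alternative values, and all 400 kept direction and side of the threshold. Jak2, Plgrkt, Bcl2a1d, Cd68, Cdh1, Nectin1, Nectin3 and Nectin4 were not run under the alternatives one by one. Leaving out p140Cap replicate 1 left Entpd2 with 0 reads in that group, so its fitted value there (-7.78, against -4.85 with all libraries) is no bound. Depth limits Cd274, Cd80 and the p140Cap values of Nt5e and Lgals9.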
